A study of Homo sapiens with 18 samples.

Results

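The genes described here are the ligands and receptors that steer growing axons: the EPH receptors and ephrins, semaphorin classes 3 to 7 with their plexin and neuropilin receptors, the SLIT ligands and ROBO receptors, and the netrins with DCC and the UNC5 receptors. They were taken by gene symbol from the rows of the count files, whatever their values, which gave 69 genes of 26485. All 69 were found in RefSeq, on 20 chromosomes, and 51 of them passed the filter on low counts, as did 12215 genes in all. The 18 libraries came from the human embryonic stem cell (hESC) line WIBR3, in a LIS1+/+ and a LIS1+/- form, grown as stem cells or as organoids collected at Day 5 or Day 12, so that each of the 6 groups had 3. LIS1 is the name in the labels for PAFAH1B1, a regulator of the motor protein dynein, and no other allele or agent is named in any group. Reads of a MARS-seq library lie close to the 3′ end of each transcript, so levels were compared between samples and not between genes. In bulk RNA, fewer cells of a type and less RNA per cell cannot be told apart. Nothing in the labels says whether replicates were separate cultures, or how many clones carry each genotype. The p-values therefore cover the spread among these libraries alone, which may be technical, and genotype and clone cannot be told apart.

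Axon guidance proteins work as pairs. Ephrins are held in the membrane, the A class by a lipid anchor and the B class by a transmembrane stretch, and they signal through EPH receptor kinases on touching cells, often in both directions. Semaphorins of class 3 are secreted and act through neuropilins joined to plexins, while those of classes 4 to 7 are mostly membrane proteins that bind plexins directly. SLIT proteins are secreted repellents read by ROBO receptors, and netrins attract through DCC or repel through UNC5 receptors. The same families also guide boundaries, vessels and cell movement in tissues that have no axons yet.

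Levels are in CPM, counts scaled to a common total, on library sizes scaled by TMM. A gene was called where the adjusted p of the edgeR quasi-likelihood test was under 0.05, with Benjamini-Hochberg adjustment over the 12215 genes. Log2 fold changes carry their standard error (SE), and means carry the SD of 3 libraries. Counts over genes ran from 1425098 to 4501489 per library, and the 69 genes held 0.130% to 0.166% of them in hESC, 0.228% to 0.262% at Day 5 and 0.265% to 0.313% at Day 12. In 3 libraries, which stood apart from the rest, counts fell as the GC content of the 3′ end rose. They were replicate 3 of hESC LIS1+/+, replicate 2 of Day 5 LIS1+/- and replicate 2 of Day 12 LIS1+/+. Their slopes were -0.0241 to -0.0147 log2 units per percent GC, against -0.000715 to 0.0115 in the other 15. Results without these 3 libraries, an exclusion chosen after seeing the data, are given for counts of calls and for some genes, not for each call that moved. Stage and sequencing pool, as the pools are numbered in the deposited names, cannot be told apart. PAFAH1B1 was lower in every LIS1+/- library than in every LIS1+/+ library of its stage, with log2 differences of -0.67, -0.58 and -0.78 in hESC, at Day 5 and at Day 12. Only the Day 12 difference was called (adjusted p = 0.0372), and that call was lost without any 1 of 5 of the 6 Day 12 libraries, all but LIS1+/+ replicate 3 (adjusted p = 0.0522 to 0.292). Stem cell markers (7 genes, POU5F1 among them) summed to 4779 to 5037 CPM in hESC LIS1+/+, 406 to 413 at Day 5 and 124 to 150 at Day 12. In LIS1+/- the sums were lower at each stage with no overlap, at 3827 to 3866, 172 to 225 and 97.1 to 114 CPM. All 8 neural progenitor markers were detected in both organoid stages, and their sum was 1139 to 1200 CPM in hESC LIS1+/+, 2410 to 3763 at Day 5 and 1626 to 3285 at Day 12. In LIS1+/- it was 1245 to 1425, 2698 to 3536 and 2157 to 2593 CPM. Most of the sum in hESC came from SOX2 and NES (464 to 592 and 528 to 602 CPM in LIS1+/+). In organoids most came from SOX2, NES and HES5, and HES5 was at no more than 3.79 CPM in hESC. At Day 5 PAX6, LHX2 and SIX3 of this list were higher in LIS1+/- with no overlap, and the others overlapped. Neuron markers summed to 479 to 591, 317 to 340 and 380 to 618 CPM in LIS1+/+. In LIS1+/- they summed to 589 to 650, 358 to 458 and 498 to 604, mostly from TUBB3. TUBB3 was already at 387 to 509 CPM in hESC LIS1+/+. DCX was at 2.00 to 3.72 CPM in hESC LIS1+/+ and at 32.7 to 70.4 at Day 12. ELAVL3 went from 2.86 to 4.68 CPM to 29.6 to 103, and STMN2 from 11.4 to 21.4 to 27.1 to 67.8. ELAVL4 and SNAP25 were also higher at Day 12 with no overlap, at up to 8.40 CPM, and TUBB3 and INA overlapped. Endothelial markers (PECAM1, CDH5, TEK and KDR) summed to 51.4 to 65.8 CPM in hESC and 4.95 to 27.8 in organoids, mostly from TEK and KDR, with PECAM1 at 0 in every library. Surface ectoderm markers summed to 67.6 to 126 CPM in hESC, all from CDH1, and to at most 5.41 in organoids, with KRT5 and KRT14 at 0 in every library. The part of these cell type shifts in the results below was not tested.

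**Figure D1:**
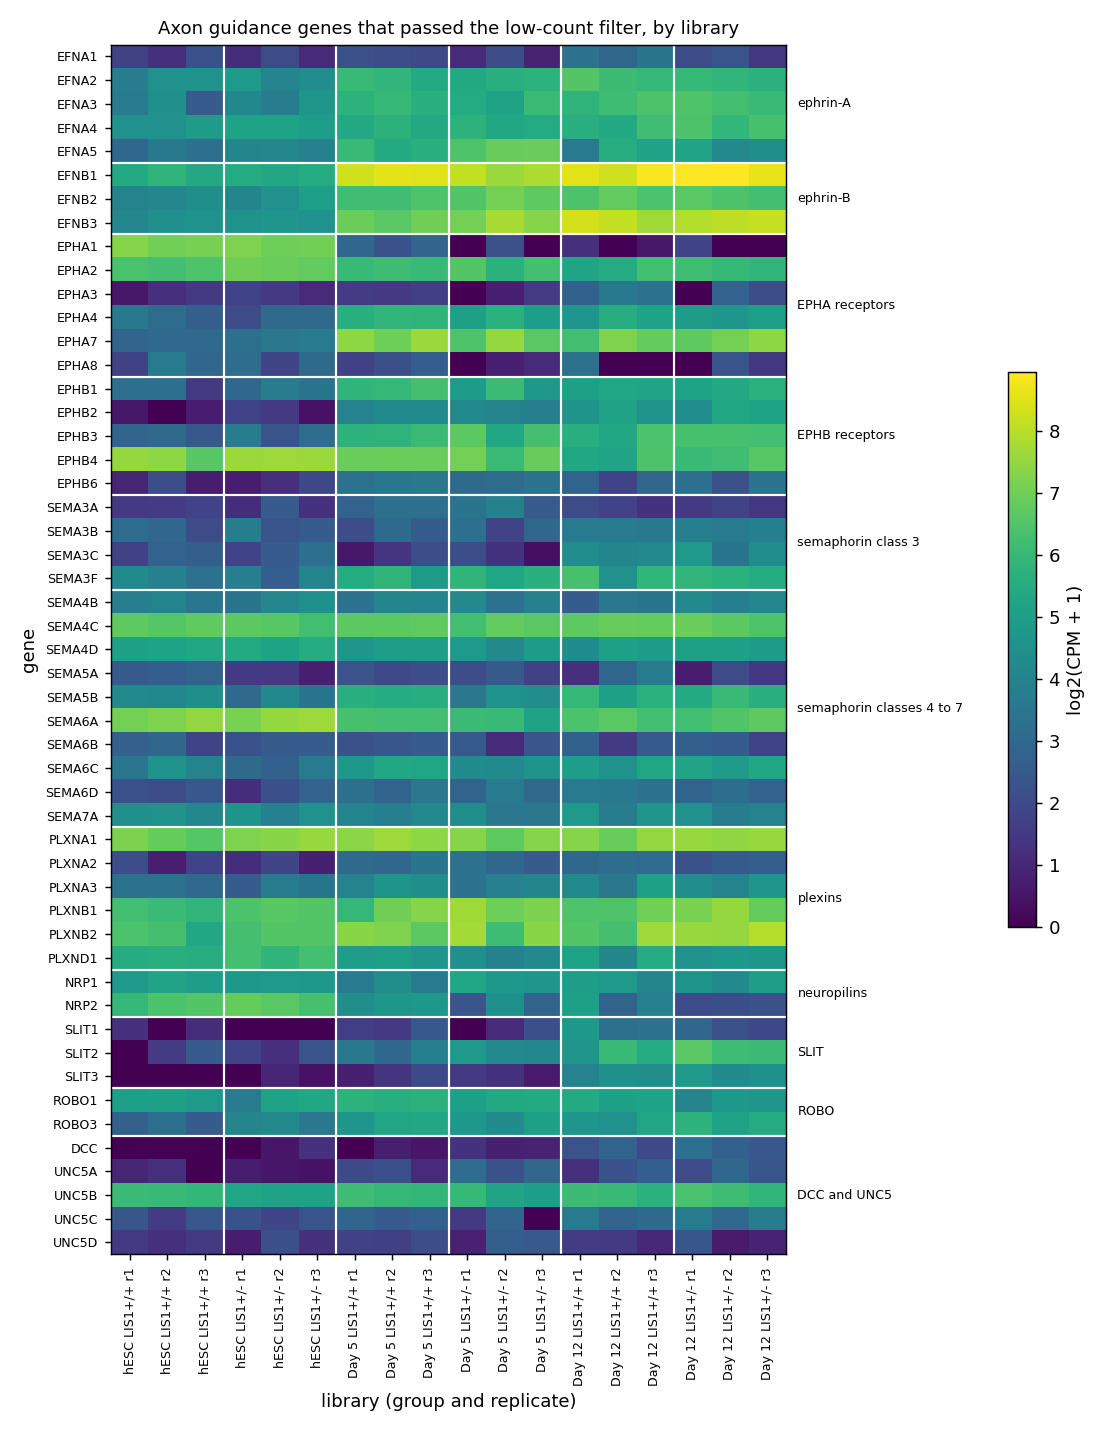
Level of each of the 51 axon guidance genes that passed the low-count filter (rows, grouped by family) in each of the 18 libraries (columns, white lines between the 6 groups), coloured by log2(CPM + 1). The ephrin rows other than EFNA1 brighten between hESC and Day 5, the EPHA1 row darkens from 126 to 159 CPM in hESC to at most 2.47 CPM at Day 12, and the SLIT rows are brightest at Day 12.

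The 18 genes that did not pass the filter were EPHA5, EPHA6, EPHA10, NTN1, NTN3, NTN4, NTN5, PLXNA4, PLXNB3, PLXNC1, ROBO2, ROBO4, SEMA3D, SEMA3E, SEMA3G, SEMA4A, SEMA4F and SEMA4G. None of the 4 netrin ligands in the files was testable. NTN3 had no count in any library, and NTN1, the founding ligand of DCC, had 59 counts over 13 libraries and at most 3.22 CPM. The testable genes closest to the filter were DCC with 91 counts in all, UNC5D with 110 and EPHA3 with 131. On the other side of it were SEMA4G with 125, PLXNC1 with 104 and ROBO2 with 87. A gene that passes the filter through 1 group alone has to differ between groups, so the counts below describe the 51 tested genes and not all 69.

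The ephrin genes EFNA4, EFNA3 and EFNA1 lie side by side, in that order, on chromosome 1 with no coding gene between them. Their starts are shown because their calls in LIS1+/+ differed. EFNA4 and EFNA3 rose between hESC and Day 5, and EFNA1 was called only between Day 5 and Day 12. The EFNA1 call depended on single libraries, as given below. In LIS1+/- EFNA4 was not called between hESC and Day 5, and EFNA1 was not called in either step. Each window, from RefSeq on GRCh38.p14, runs from 250 bases before the start to 50 after it on the plus strand, and capitals mark the GC box GGGCGG on either strand, overlapping matches included. EFNA4 lies at chr1:155063490-155063789, EFNA3 at chr1:155078587-155078886 and EFNA1 at chr1:155127626-155127925.
EFNA4: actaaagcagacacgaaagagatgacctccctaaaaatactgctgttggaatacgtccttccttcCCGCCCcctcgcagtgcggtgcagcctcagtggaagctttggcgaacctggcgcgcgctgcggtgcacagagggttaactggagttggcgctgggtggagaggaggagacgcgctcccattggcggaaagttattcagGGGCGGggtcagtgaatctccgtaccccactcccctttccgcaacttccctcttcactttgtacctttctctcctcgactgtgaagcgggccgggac
EFNA3: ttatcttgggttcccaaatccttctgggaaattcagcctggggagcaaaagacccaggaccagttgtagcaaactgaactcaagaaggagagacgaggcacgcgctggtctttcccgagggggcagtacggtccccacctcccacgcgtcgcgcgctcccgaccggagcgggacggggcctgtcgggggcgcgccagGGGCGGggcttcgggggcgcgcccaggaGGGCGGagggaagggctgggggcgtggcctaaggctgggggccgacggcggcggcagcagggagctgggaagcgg
EFNA1: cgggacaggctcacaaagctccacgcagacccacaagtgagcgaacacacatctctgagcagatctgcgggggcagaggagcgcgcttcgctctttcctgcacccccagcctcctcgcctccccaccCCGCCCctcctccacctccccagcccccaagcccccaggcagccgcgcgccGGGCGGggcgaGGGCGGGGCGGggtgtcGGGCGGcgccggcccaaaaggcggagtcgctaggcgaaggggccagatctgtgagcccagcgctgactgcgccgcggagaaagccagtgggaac
The windows hold 2, 2 and 5 GC boxes and 20, 28 and 28 CG dinucleotides. A GC box is in 45.0% of all 35116 promoter windows of the reference table and in 72.5% of the 91 windows that belong to 59 of the 69 genes. The median GC content was 58.7% over all windows and 65.7% over those of the axon guidance genes, and the median number of CG dinucleotides was 14 and 21. A match is a description of the letters and not a binding site.

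In LIS1+/+, the step from hESC to Day 5 raised most ephrins and most EPHB receptors and lowered both neuropilins and EPHA1. Most tested plexins were also called higher, but PLXNA2 and PLXNA3 alone held with each library left out. Of the 51 tested genes 27 were higher at Day 5, where 22.9% of all tested genes were (52.9% of the axon guidance genes), and 5 were lower, where 21.7% of all were (9.80%). The median log2 fold change was 1.04, or 0.88 with genes that had no count in hESC set at their bound, against 0.06 over all tested genes. In either direction 62.7% were called, where 44.6% of all were, and in 37 genes (72.5%, where 56.4% of all did) the libraries of the stages did not overlap. Of ligands and receptors, 14 higher and 1 lower were among 25 ligands and 13 higher and 4 lower among 26 receptors. Of the 32 calls, 26 held with each library of the comparison left out in turn, and 29 without the 3 libraries that stood apart, where 30 were called in all (58.8%, where 43.3% of all genes were). Those lost with some library left out were PLXNA1, PLXNB1, PLXNB2, PLXND1, ROBO1 and SEMA6D.

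From Day 5 to Day 12 in LIS1+/+ the SLIT ligands rose, and genes of other families were called in both directions. Of the 51 genes 8 were higher, where 12.7% of all tested genes were (15.7% of the axon guidance genes), and 4 were lower, where 11.7% of all were (7.84%). Called genes made up 23.5% of the axon guidance genes and 24.5% of all, so the share called was near the background. The stages did not overlap in 18 genes (35.3%, where 40.2% of all did), and 18 passed an unadjusted p of 0.05 (35.3%, where 37% of all did). The median log2 fold change was 0.09 against 0.02 over all. Only 6 of the 12 calls, those of EFNB3, EPHB4, SEMA3C, SLIT2, SLIT3 and DCC, held with each library left out in turn, and both steps use the same Day 5 libraries. Without the 3 libraries that stood apart 11 of the 12 held and 14 were called (27.5%, where 22.7% of all genes were), with EFNA5, EPHA4 and EPHA7 then lower at Day 12.

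**Figure D2:**
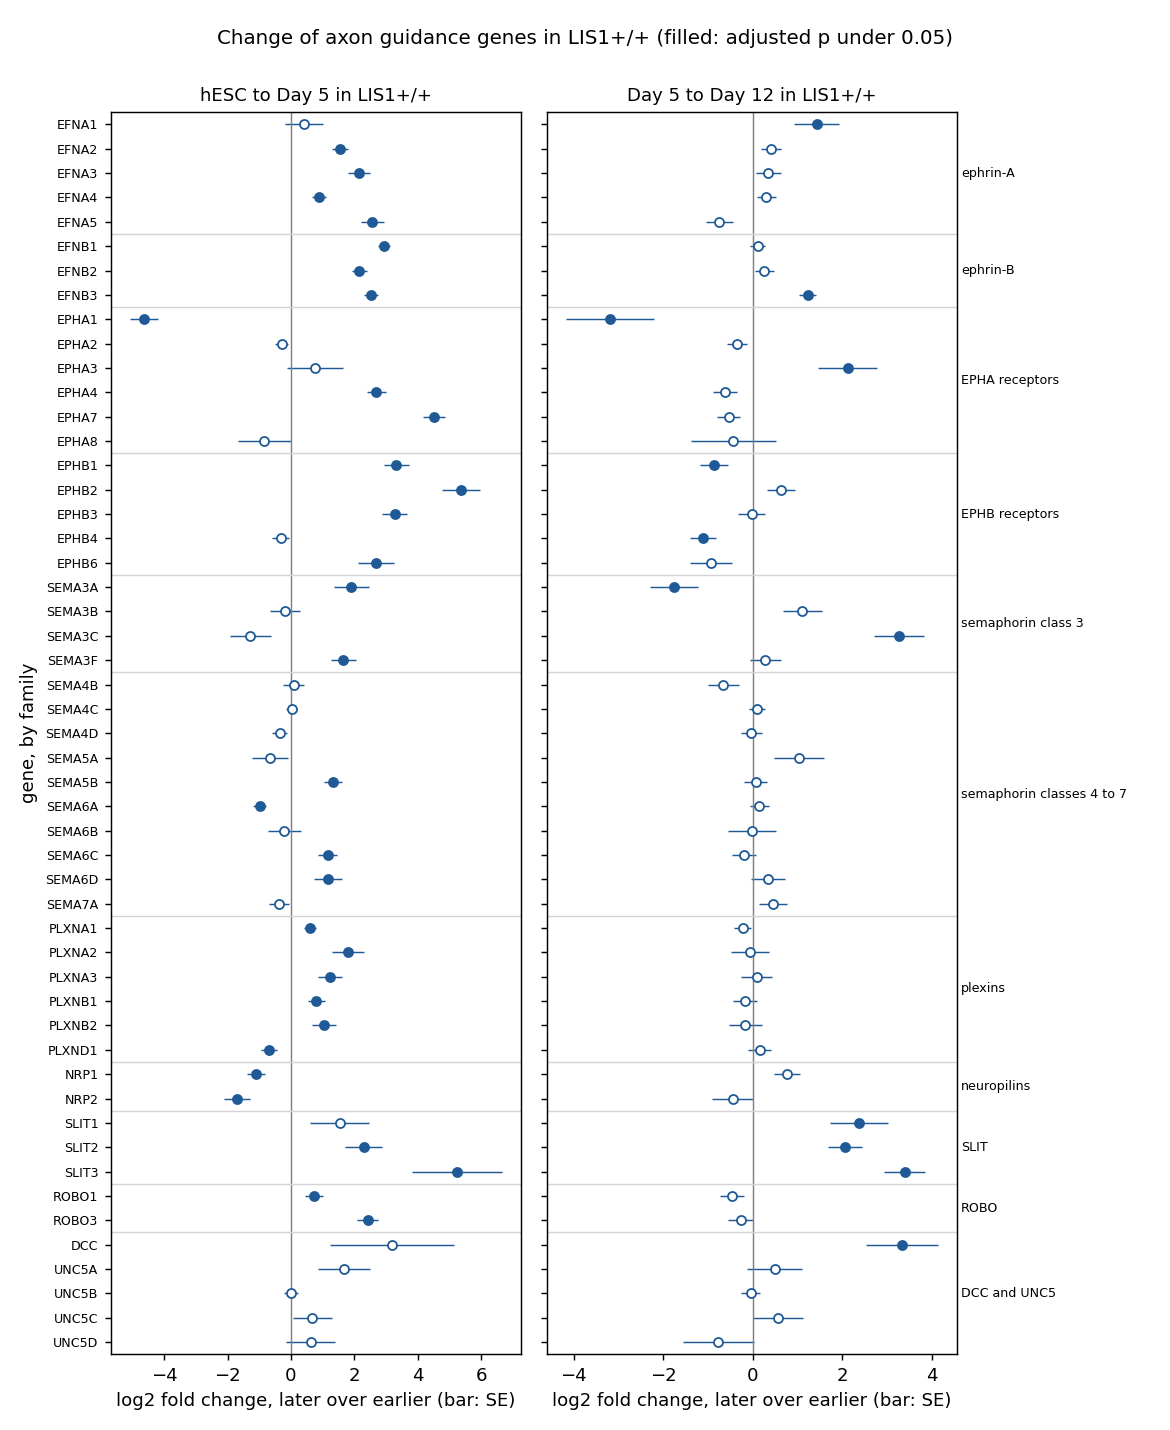
Log2 fold change with its SE (horizontal axis) of the 51 tested genes (vertical axis, by family) in LIS1+/+ from hESC to Day 5 on the left and from Day 5 to Day 12 on the right, filled where the adjusted p was under 0.05. On the left 27 filled points lie right of zero and 5 left of it, and on the right 8 and 4, with the 3 SLIT genes filled on the right side. The points of SLIT3 and DCC on the left are fitted values against a group with no count.

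In LIS1+/+, to which the family accounts that follow refer until LIS1+/- is taken up, 7 of 8 ephrins, the ligands of the EPH receptors, rose from hESC to Day 5 and none fell. The ephrin-B ligands all rose. EFNB1 was at 43.8, 56.1 and 41.6 CPM in hESC and at 318, 387 and 368 at Day 5, a 7.60-fold rise (log2 2.93 ± 0.19, adjusted p = 1.56e-12). EFNB2 was at 15.2, 16.7 and 21.1 CPM and then at 74.0, 72.6 and 89.3 (2.16 ± 0.24, adjusted p = 4.17e-08). EFNB3 was at 16.7, 21.4 and 23.0 CPM and then at 122, 100 and 127 (2.53 ± 0.22, adjusted p = 6.45e-10). For each of these the lowest Day 5 library lay well above the highest hESC library. EFNB3 alone of the 3 was called again, at 334, 281 and 206 CPM at Day 12 (1.23 ± 0.19, adjusted p = 2.9e-05), while EFNB1 (320 to 465 CPM) and EFNB2 (85.2 to 111 CPM) overlapped with Day 5.

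The ephrin-A ligands split into 4 that rose early and 1 that did not. EFNA5, a ligand known from topographic maps in the brain, was at 7.14, 11.4 and 8.69 CPM in hESC and at 64.4, 43.7 and 50.7 at Day 5 (log2 2.56 ± 0.36, adjusted p = 2.47e-06). EFNA3 was at 11.9, 21.4 and 4.97 CPM and then at 54.8, 62.6 and 50.7 (2.15 ± 0.34, adjusted p = 1.35e-05), with its lowest hESC value in the library that stood apart by GC content. Without the 3 such libraries the rise of EFNA3 was 1.79 (adjusted p = 2.4e-05). EFNA2 rose by 1.56 ± 0.25 (adjusted p = 1.62e-05) and EFNA4 by 0.88 ± 0.23 (adjusted p = 0.00324), to means of 56.1 ± 11.5 and 45.2 ± 6.31 CPM. None of these 4 was called again between Day 5 and Day 12 in LIS1+/+, except EFNA5 without the 3 libraries that stood apart. EFNA1, neighbour of EFNA3, was at 2.38, 1.34 and 3.72 CPM in hESC, at 3.62, 3.38 and 2.93 at Day 5 and at 9.69, 6.92 and 10.2 at Day 12. Its rise from Day 5 to Day 12 was 1.43 ± 0.51 (adjusted p = 0.0395), and it was lost without any 1 of Day 5 replicates 1, 2 and 3 and Day 12 replicates 1 and 3 (adjusted p = 0.0770 to 0.110) and with no filter on low counts (0.0731).

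**Figure D3:**
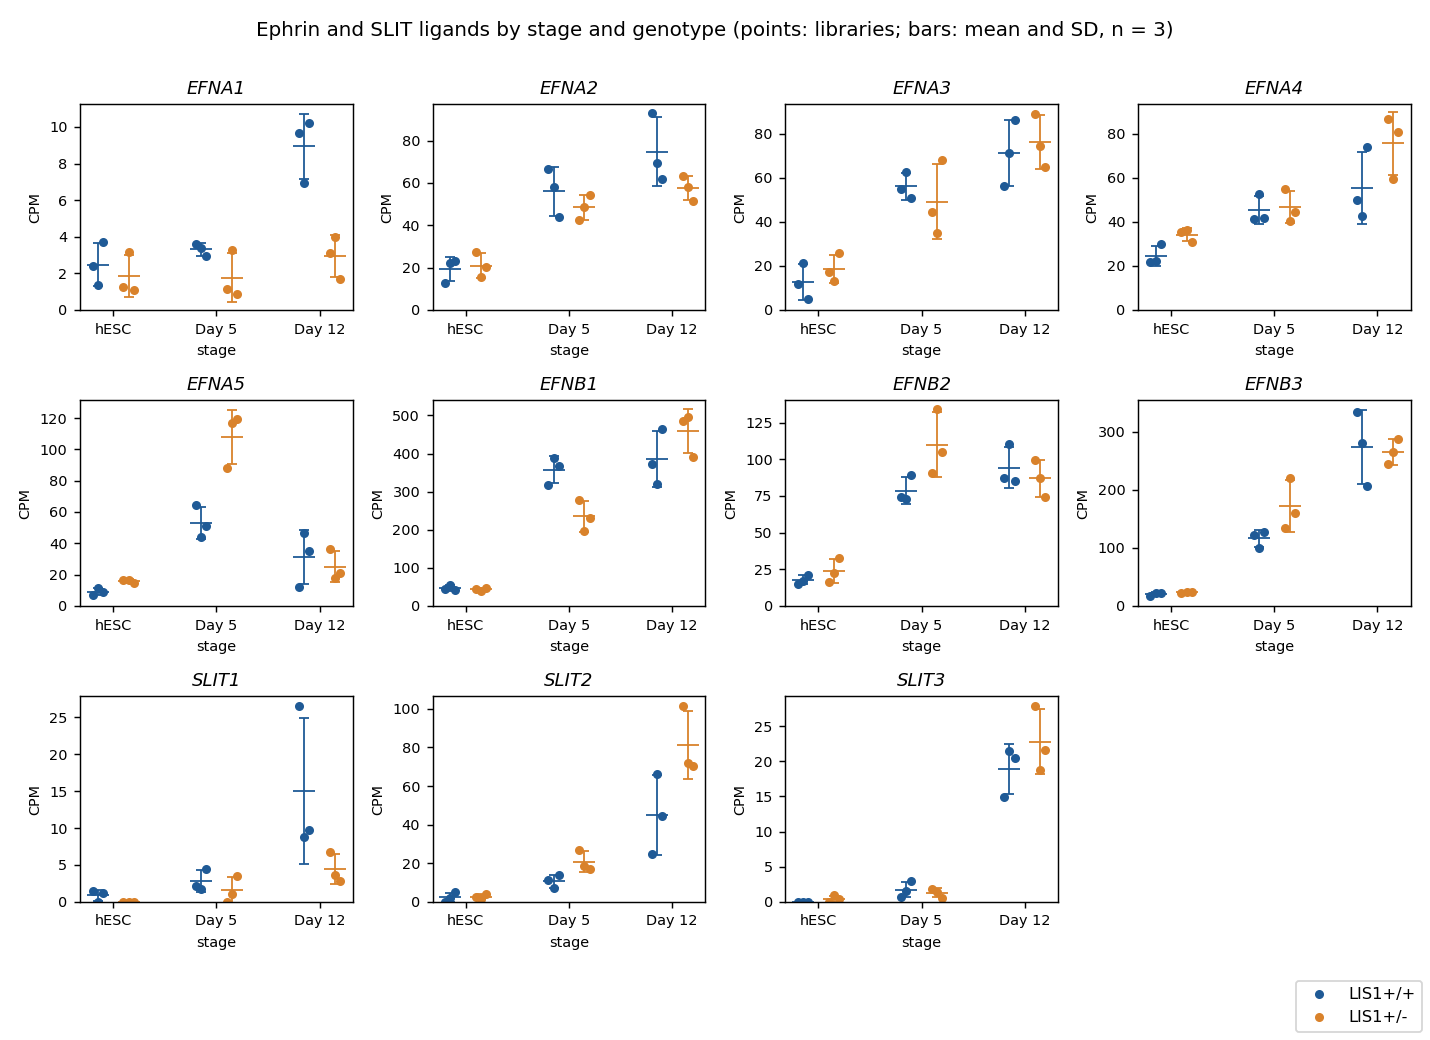
CPM (vertical axes, from 0, each with its own scale) of the 8 ephrins and 3 SLIT ligands at the 3 stages in LIS1+/+ (blue) and LIS1+/- (orange), with 1 point per library and bars for the mean and SD of 3. Most ephrins step up at Day 5 (EFNB1 from 41.6 to 56.1 CPM in hESC LIS1+/+ to 318 to 387), and SLIT3 is near 0 until Day 12, when it reaches 14.9 to 27.8 CPM over both genotypes.

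The EPHB receptors, which bind mainly ephrin-B ligands, rose with 1 exception: 4 of 5 were called higher at Day 5 and none lower. EPHB2 had 2 counts in hESC LIS1+/+ and 229 at Day 5, at 0.476, 0 and 0.621 CPM and then 14.7, 18.9 and 18.9 (adjusted p = 5.54e-08). Its ratio of pooled counts was 45.8 with a 95% counting interval of 12.5 to 381, which covers counting error only. EPHB1 was at 8.57, 8.68 and 1.86 CPM and then at 56.7, 60.8 and 78.0 (log2 3.32 ± 0.39, adjusted p = 1.67e-07). EPHB3 rose by 3.27 ± 0.39 to 59.6 ± 7.4 CPM (adjusted p = 3e-07), and EPHB6, which lacks kinase activity, by 2.68 ± 0.57 to 10.2 ± 0.686 CPM (adjusted p = 0.000434), a value of 3.59 without hESC replicate 2. In these 4 genes the groups did not overlap. EPHB4, the receptor of EFNB2 in vessels, was not among them, with 184, 170 and 98.1 CPM in hESC and 119, 121 and 121 at Day 5. It fell by Day 12, to 40.7, 36.5 and 87.6 CPM (log2 change of -1.11 ± 0.29, adjusted p = 0.00749), and the GC-affected library was the lowest of those. Without the 3 GC-affected libraries that change was -0.88 (adjusted p = 0.00314), and EPHB4 was then also lower at Day 5 than in hESC. EPHB1 was also called lower at Day 12 (33.0, 37.1 and 36.5 CPM, -0.87 ± 0.31, adjusted p = 0.0417), but leaving out any 1 of the 6 libraries ended that call (adjusted p = 0.0557 to 0.140), as did DESeq2 size factors (0.0508).

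The EPHA receptors did not move as a group: of 6 tested, 2 rose and 1 fell at Day 5. EPHA7 was at 6.67, 7.35 and 7.45 CPM in hESC LIS1+/+ and at 171, 124 and 196 at Day 5, a 22.9-fold rise (log2 4.52 ± 0.34, adjusted p = 1.79e-10). EPHA4, which binds ephrins of both classes, was at 11.4, 8.02 and 5.59 CPM and then at 50.4, 58.8 and 57.1 (2.69 ± 0.31, adjusted p = 8.5e-08). Neither was called between Day 5 and Day 12 with all libraries, when EPHA7 was at 75.0, 150 and 112 CPM and EPHA4 at 25.2, 47.2 and 36.0. EPHA3 was low at first, with 1.93, 1.80 and 2.26 CPM at Day 5, and at 5.82, 11.3 and 9.25 CPM at Day 12. That rise was 2.12 ± 0.65 (adjusted p = 0.0188), but it was not called without Day 5 replicate 1 (0.0569), Day 5 replicate 2 (0.0637) or Day 12 replicate 2 (0.0676), nor without the 3 libraries that stood apart (0.0569). EPHA2 and EPHA8 were not called in either LIS1+/+ step.

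EPHA1 went the other way. It was at 159, 132 and 139 CPM in hESC LIS1+/+, at 6.75, 3.83 and 6.54 at Day 5 and at 1.29, 0 and 0.487 at Day 12. The first fall was of -4.64 ± 0.45 on the log2 scale (adjusted p = 7.38e-08). The second rests on 74 counts against 3, a ratio of pooled counts of 9.84 with a 95% counting interval of 3.24 to 48.8, and its adjusted p of 0.0225 was lost without Day 5 replicate 1 (0.0553) or 3 (0.0508), Day 12 replicate 2 (0.0761) or 3 (0.0734), and with DESeq2 (0.0706). Without Day 12 replicate 1 the EPHA1 change was -4.16 (0.0340). The 3′ end of EPHA1 is overlapped on the opposite strand by ZYX, a gene of focal adhesions, and no source used here gives the strand used in counting, so reads of the pair may not be separable. ZYX was at 281 ± 87.2 CPM in hESC, 119 ± 4.47 at Day 5 and 51.7 ± 36.1 at Day 12, with log2 changes of -1.24 and -1.17.

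Of the class 3 semaphorins, the secreted ligands of neuropilins, 4 of 7 were tested, and they fell into different patterns. SEMA3F was at 18.1, 14.0 and 9.31 CPM in hESC LIS1+/+ and at 45.6, 57.7 and 28.6 at Day 5 (log2 1.65 ± 0.40, adjusted p = 0.00185). SEMA3A, the first known collapsing factor of growth cones, was at 1.90, 2.00 and 2.48 CPM, then at 6.03, 9.01 and 9.02 (1.90 ± 0.55, adjusted p = 0.00676) and at 3.23, 2.52 and 1.46 at Day 12. Its Day 5 libraries were above those of both other stages. The fall of SEMA3A to Day 12 (-1.76 ± 0.55, adjusted p = 0.0192) was lost without Day 5 replicate 2 (0.0584), Day 5 replicate 3 (0.0507) or Day 12 replicate 3 (0.0869). SEMA3C had the reverse order, with 2.38, 6.01 and 5.59 CPM in hESC, 0.482, 1.58 and 3.38 at Day 5 and 20.03, 16.4 and 17.5 at Day 12. Only its later rise was called (3.26 ± 0.56, 9.58-fold, adjusted p = 0.000125), and without Day 5 replicate 3 it was 4.04. SEMA3B was not called in either step.

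Of 10 tested membrane semaphorins of classes 4 to 7, 3 rose and 1 fell at Day 5, and none was called from Day 5 to Day 12, when none passed an unadjusted p of 0.05 either. SEMA5B was at 18.1, 17.4 and 21.1 CPM in hESC LIS1+/+, at 47.8, 45.7 and 47.1 at Day 5 (log2 1.31 ± 0.28, adjusted p = 0.000505) and at 61.4, 34.0 and 52.1 at Day 12. SEMA6C was at 10.5, 22.7 and 14.9 CPM and then at 26.5, 40.6 and 38.1 (1.16 ± 0.29, adjusted p = 0.00226). SEMA6A, a membrane ligand of A-class plexins, fell from 136, 150 and 181 CPM to 80.6, 76.8 and 77.6 (log2 change of -0.99 ± 0.21, adjusted p = 0.00034). In all 3 genes the hESC and Day 5 libraries were apart. The call of SEMA6D (1.16 ± 0.44, adjusted p = 0.0357) was lost without any 1 of hESC replicates 1, 2 and 3 and Day 5 replicates 1 and 3 (0.0619 to 0.117), and without the 3 libraries that stood apart (0.0542). SEMA4C, a ligand of PLXNB2, lay between 94.9 and 117 CPM in all 9 LIS1+/+ libraries.

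All 6 tested plexins, the signalling receptors of semaphorins, were called from hESC to Day 5, 5 higher and 1 lower, and none was called afterwards (0 at an unadjusted p of 0.05). PLXNA2 was at 3.33, 0.668 and 2.48 CPM in hESC LIS1+/+ and at 7.48, 6.76 and 9.92 at Day 5 (log2 1.81 ± 0.50, adjusted p = 0.00465). PLXNA3 was at 9.05, 9.35 and 7.45 CPM and then at 15.2, 23.9 and 21.2 (1.22 ± 0.38, adjusted p = 0.0107). The 3′ end of PLXNA3 is overlapped on the other strand by LAGE3, which was at 110 ± 18.3 and 129 ± 7.09 CPM and was not called. PLXNA1 was at 146, 114 and 96.2 CPM and then at 166, 199 and 171, a log2 rise of 0.59 (adjusted p = 0.0136) that was lost without hESC replicate 3 (0.0861) or Day 5 replicate 2 (0.0778). The other 3 calls also depended on single libraries. The call of PLXNB1 (log2 0.80) was lost without hESC replicate 2 or 3 or Day 5 replicate 2 or 3 (0.0535 to 0.158), with only the groups compared in the fit (0.0619) and without the 3 libraries that stood apart (0.119). That of PLXNB2 (1.04) was lost without hESC replicate 2 or 3 or Day 5 replicate 1 or 2 (0.0508 to 0.145). The lower level of PLXND1, a receptor of SEMA3E, was -0.69 ± 0.25 on the log2 scale and was lost without any 1 of the hESC replicates or Day 5 replicate 3 (0.0512 to 0.110).

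Both neuropilins, the ligand-binding partners of plexins for class 3 semaphorins, fell at Day 5 while the class 3 ligands SEMA3A and SEMA3F rose. NRP1 was at 27.1, 36.7 and 30.4 CPM in hESC LIS1+/+ and at 11.6, 20.3 and 12.0 at Day 5 (log2 change of -1.09 ± 0.29, adjusted p = 0.00304). NRP2 was at 61.0, 84.8 and 92.5 CPM and then at 20.7, 25.5 and 26.6 (-1.70 ± 0.41, adjusted p = 0.00237). The stages did not overlap for either gene. At Day 12 NRP1 was at 31.7, 27.7 and 16.1 CPM and NRP2 at 33.6, 6.29 and 14.1, with no call from Day 5.

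The SLIT ligands were the only family in which each tested member was called higher from Day 5 to Day 12 in LIS1+/+. SLIT2 was at 0, 2.00 and 4.97 CPM in hESC, at 11.1, 7.21 and 13.8 at Day 5 and at 24.6, 66.1 and 44.3 at Day 12. Both of its steps were called, with log2 changes of 2.29 ± 0.59 (adjusted p = 0.00315) and 2.07 ± 0.38 (adjusted p = 0.000381). The first rests on 0, 3 and 8 counts in hESC and was 1.59 without hESC replicate 1 and 3.59 without hESC replicate 3, called in both. SLIT3 had no count in the hESC LIS1+/+ libraries, 0.724, 1.58 and 2.93 CPM at Day 5 and 14.9, 21.4 and 20.4 at Day 12. Its 23 Day 5 counts were at least 3.07-fold higher than a floor of 3 counts over the hESC group (adjusted p = 0.00416), and its later rise was 10.5-fold (3.39 ± 0.46, adjusted p = 8.87e-06). SLIT1 was at 1.43, 0 and 1.24 CPM, then at 2.17, 1.80 and 4.51, and at 26.5, 8.81 and 9.73 at Day 12 (log2 2.37 ± 0.64, adjusted p = 0.00855). Day 12 replicate 1 was by far the highest for SLIT1, and without it the rise was 1.70 with an adjusted p of 0.0883. That library also had the highest sums of neural crest (315 CPM against 42.8 and 121), mesenchyme (936 against 144 and 391) and endoderm markers (456 against 20.8 and 72.5), and their part in the SLIT1 level was not tested.

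The ROBO receptors were called only in the first step in LIS1+/+. ROBO3, known from axons that cross the midline, was at 5.71, 8.68 and 4.97 CPM in hESC LIS1+/+, at 24.6, 38.5 and 39.9 at Day 5 (log2 2.42 ± 0.33, adjusted p = 1.4e-06) and at 25.2, 22.0 and 37.5 at Day 12. ROBO1 was at 32.4, 34.1 and 27.3 CPM, then at 53.8, 47.5 and 53.4 (0.72 ± 0.27, adjusted p = 0.0334) and at 43.3, 34.0 and 34.6. Its call was lost without any 1 of the 6 libraries compared (0.0532 to 0.111) and without the 3 that stood apart (0.0874). ROBO2 and ROBO4 were too low to test, at up to 5.66 and 3.23 CPM.

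Of the netrin receptors, DCC alone was called in LIS1+/+. DCC had no count in hESC, was at 0, 0.676 and 0.451 CPM at Day 5 and at 3.88, 6.29 and 2.92 at Day 12, a later rise of 3.34 ± 0.80 on the log2 scale (10.1-fold, adjusted p = 0.0037) that rests on 5 against 22 counts. Without Day 5 replicate 2 the rise of DCC was 3.95. UNC5B lay between 52.1 and 71.9 CPM in all 9 LIS1+/+ libraries, with log2 changes of 0.00 ± 0.21 and -0.04 ± 0.21. UNC5A, UNC5C and UNC5D were at no more than 12.3 CPM in any LIS1+/+ library and were not called.

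In LIS1+/- the first step called 22 genes higher, where 22.4% of all tested genes were (43.1% of the axon guidance genes), and 9 lower, where 21.4% of all were (17.6%). The median log2 fold change was 0.74 against 0.06 over all. The stages did not overlap in 31 genes (60.8%, where 50.8% of all did), and 43.7% of all genes were called in either direction. Of the 31 calls, 22 held with each library left out in turn and 28 without the 3 libraries that stood apart (44.8% of all genes were then called). The ephrin-B ligands again all rose, by 2.44 ± 0.18 for EFNB1, 2.18 ± 0.22 for EFNB2 and 2.86 ± 0.21 for EFNB3, beside 2.93, 2.16 and 2.53 in LIS1+/+. EPHA7 rose by 3.55 ± 0.31 and EPHB3 by 3.20 ± 0.36. EPHA1 went from 148, 126 and 131 CPM to 0, 3.66 and 0, and NRP2 from 114, 102 and 80.4 to 4.11, 21.6 and 6.44 (log2 change of -3.21 ± 0.45). Day 5 replicate 2 held most of what NRP2 was left, and without it the change was -4.18. EPHA2 and EPHA8 were called lower in LIS1+/- (-0.69 and -3.10), EPHA2 not without Day 5 replicate 2 (adjusted p = 0.0623) and EPHA8 not without hESC replicate 1 or 3 or Day 5 replicate 1 or 2 (0.0595 to 0.0821). UNC5A was called here, with 3 counts in hESC and 55 at Day 5 (ratio of pooled counts 13.7, 95% counting interval 4.43 to 68.2). The 3′ end of UNC5A is overlapped on the opposite strand by HK3, so reads of this pair may not be separable either. PLXND1 fell from 76.4, 56.8 and 76.8 CPM to 21.7, 14.3 and 18.4 (-1.95 ± 0.26, adjusted p = 8.59e-07).

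From Day 5 to Day 12 in LIS1+/-, 12 genes were higher, where 8.9% of all tested genes were (23.5% of the axon guidance genes), and 3 were lower, where 7.64% of all were (5.88%). The median log2 fold change was 0.34 against -0.01 over all, and 7 of the 15 calls (29.4%, where 16.5% of all were called) held with each library left out, and 13 held without the 3 libraries that stood apart (19.5% of all genes were then called). The stages did not overlap in 20 genes (39.2%, where 34.3% of all did). The SLIT ligands were again among those that rose: SLIT3 went from 1.87, 1.46 and 0.585 CPM to 27.8, 18.8 and 21.7 (4.11 ± 0.50, adjusted p = 2.13e-06) and SLIT2 from 26.9, 18.6 and 17.0 to 101, 71.7 and 70.4 (1.95 ± 0.36, adjusted p = 0.000512). SLIT1 was not called here, at 0, 1.10 and 3.51 CPM and then 6.80, 3.70 and 2.85. SEMA3C rose by 3.50 ± 0.59 (4.43 without Day 5 replicate 1) and SEMA3A fell by 2.20 on the log2 scale, beside 3.26 and -1.76 in LIS1+/+. EFNA5 fell from 88.2, 117 and 119 CPM to 36.5, 17.6 and 21.1 (-2.16 ± 0.30, adjusted p = 1.56e-05), and SEMA5B rose from 10.8, 23.4 and 20.2 to 43.9, 66.3 and 51.0 (1.57 ± 0.27, adjusted p = 0.000183). ROBO1 was lower (-0.80, adjusted p = 0.0453) and EFNA4 higher (0.69, adjusted p = 0.0274). ROBO1 was not called without any 1 of Day 5 replicates 2 and 3 and Day 12 replicates 1, 2 and 3 (up to 0.175). It was also not called without the 3 libraries that stood apart. EFNA4 was not called without any 1 of Day 5 replicates 2 and 3 and Day 12 replicates 1 and 3 (up to 0.115).

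Whether the first step differed between the genotypes was asked by the difference of the genotype effect, Day 5 minus hESC. It was called for none of the 51 genes with edgeR or DESeq2, where 0.573% of all tested genes were called with edgeR, and 9 passed an unadjusted p of 0.05 (17.6% against 12% of all). For Day 12 minus Day 5, which asks the same of the second step, 1 gene was called (1.96%, where 1.06% of all were), SEMA5B. In that difference 12 genes passed an unadjusted p of 0.05 (23.5% against 12.5% of all). For Day 12 minus hESC none was called with either tool (0.377% of all with edgeR), and 5 passed an unadjusted p of 0.05 (9.8% against 8.11%). Without the 3 libraries that stood apart these counts were 2, 3 and 2, where 0.802%, 1.25% and 1.24% of all genes were called.

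Within stages, the LIS1+/- and LIS1+/+ libraries differed in 1 axon guidance gene at Day 5 and in none in hESC or at Day 12 at the adjusted threshold. In hESC 0.491% of all tested genes were called, at Day 5 1.95% (1.96% of the axon guidance genes) and at Day 12 1.4%. DESeq2 called 1 in hESC (UNC5B, lower), 4 at Day 5 (EFNA5 and NRP1 higher, EFNB1 and SEMA5B lower) and 1 at Day 12 (NRP2, lower), where 1.51%, 2.6% and 2.41% of all genes with an adjusted p from DESeq2 were called. At an unadjusted p of 0.05, 10 axon guidance genes passed in hESC (19.6%, where 11.2% of all did), 17 at Day 5 (33.3%, where 11.5% did) and 9 at Day 12 (17.6%, where 12.7% did). The medians over the axon guidance genes were 0.18, -0.20 and 0.06, against 0.03, 0.01 and -0.01 over all. The LIS1+/- libraries were all above or all below the LIS1+/+ libraries in 9 and 3 genes in hESC (10.6% and 7.69% of all tested genes were), in 7 and 9 at Day 5 (8.06% and 9.45%) and in 3 and 6 at Day 12 (8.47% and 8.43%). At the adjusted threshold 0.671% of all genes were higher at Day 5 and 1.28% lower. Without the 3 libraries that stood apart 7 genes were called at Day 5 (13.7%, where 2.42% of all were), NRP1 higher and EPHA1, EPHA7, EPHB1, NRP2, SEMA5B and UNC5C lower, and 2 at Day 12 (3.92%, where 2.88% of all were), SLIT2 higher and NRP2 lower. The stem cell marker sums given above were also lower in LIS1+/- at each stage, though not through each marker. POU5F1 was at 32.6 to 37.4 CPM in LIS1+/+ and 5.85 to 8.60 in LIS1+/- at Day 5. In hESC (459 to 562 and 400 to 509 CPM) and at Day 12 (0.487 to 0.646 and 0.569 to 0.618 CPM) its genotypes overlapped. The part of these markers in the genotype differences was not tested.

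SEMA5B, a membrane semaphorin with thrombospondin repeats, was lower in LIS1+/- at Day 5. It was at 47.8, 45.7 and 47.1 CPM in the LIS1+/+ libraries and at 10.8, 23.4 and 20.2 in the LIS1+/- libraries. Every LIS1+/- library was below every LIS1+/+ library. The log2 difference was -1.36 ± 0.27 (2.57-fold lower, adjusted p = 0.00483), and it held under all 12 alternatives, between -1.57 and -1.11 (adjusted p up to 0.0444, without Day 5 LIS1+/- replicate 1). In hESC the LIS1+/- libraries were at 7.58, 17.1 and 10.1 CPM, also below the LIS1+/+ libraries, with no call (-0.68 ± 0.33, adjusted p = 0.440). At Day 12 the genotypes overlapped, at 61.4, 34.0 and 52.1 CPM and at 43.9, 66.3 and 51.0 (log2 difference of 0.14). In LIS1+/- the step from hESC to Day 5 was not called, and the step to Day 12 was.

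**Figure D4:**
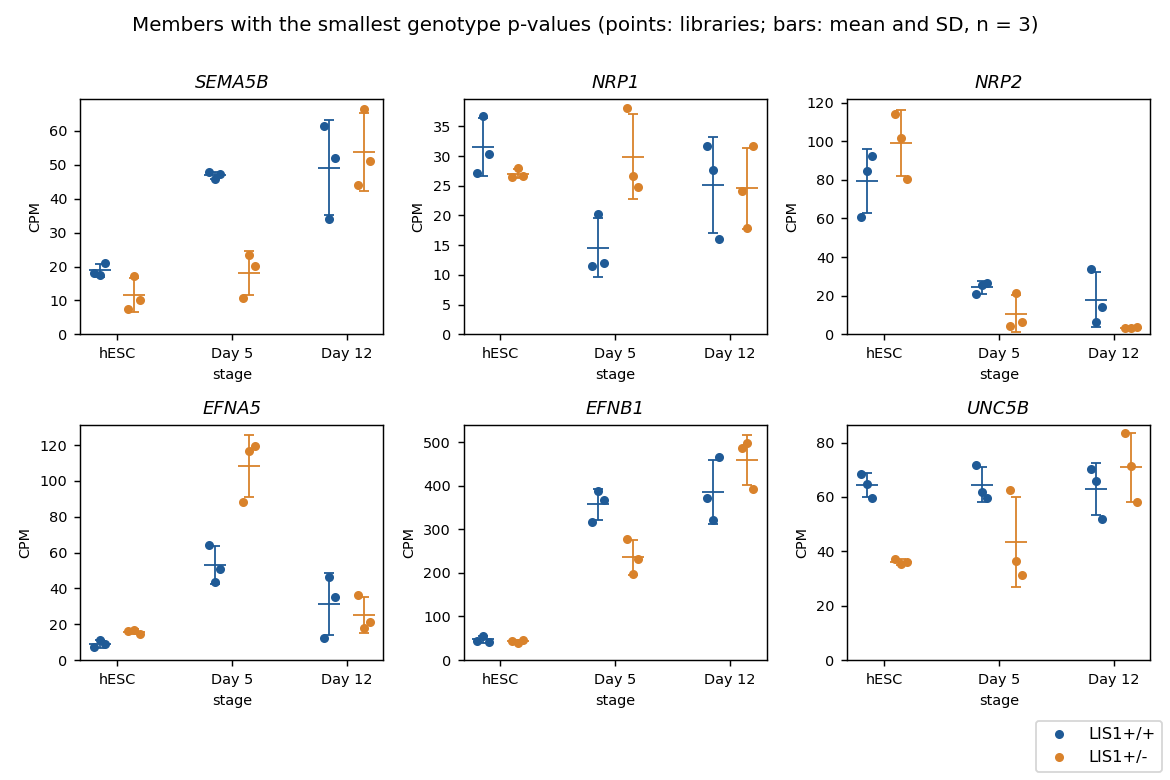
CPM (vertical axes, from 0, each with its own scale) at the 3 stages in LIS1+/+ (blue) and LIS1+/- (orange) of the 6 genes with the smallest unadjusted genotype p at any stage, with 1 point per library and bars for the mean and SD of 3. SEMA5B at Day 5 (45.7 to 47.8 CPM against 10.8 to 23.4) is the 1 difference called, and the Day 12 LIS1+/+ points of NRP2 spread from 6.29 to 33.6 CPM.

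NRP2 was the gene with the smallest p at Day 12, where it was at 33.6, 6.29 and 14.1 CPM in LIS1+/+ and at 3.09, 3.41 and 3.70 in LIS1+/-, a log2 difference of -2.35 ± 0.59 that missed the threshold (adjusted p = 0.0516). At Day 5 it was at 20.7, 25.5 and 26.6 CPM and at 4.11, 21.6 and 6.44 (-1.20 ± 0.45, adjusted p = 0.271). The groups overlapped at Day 5 through LIS1+/- replicate 2, and the lowest Day 12 LIS1+/+ value was in replicate 2, both among the libraries that stood apart. Without those 3 libraries the differences were -2.17 (adjusted p = 0.000145) and -2.73 (adjusted p = 1.55e-05). That exclusion was chosen after seeing the data and removes the NRP2 values nearest to the other genotype, so these p-values are not independent support. Without Day 12 LIS1+/+ replicate 1 the Day 12 difference was -1.59 (0.304). Over the Day 12 LIS1+/+ libraries, the neural crest marker sum was 315, 42.8 and 121 CPM for replicates 1, 2 and 3, and it was 34.1 to 43.9 in LIS1+/-. Mesenchyme markers summed to 144 to 936 and to 88.8 to 121 CPM. NRP2 is also made by crest and mesenchyme cells, and the part of these in its level was not tested.

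NRP1, EFNA5 and EFNB1 at Day 5 and UNC5B in hESC also came near the threshold. NRP1 was at 11.6, 20.3 and 12.0 CPM in Day 5 LIS1+/+ and at 38.1, 26.7 and 24.9 in LIS1+/- (log2 1.02 ± 0.28, adjusted p = 0.0516), the opposite side to NRP2. EFNA5 was at 64.4, 43.7 and 50.7 CPM against 88.2, 117 and 119 (1.03 ± 0.28, adjusted p = 0.0543), and EFNB1 at 318, 387 and 368 against 278, 197 and 231 (-0.60 ± 0.17, adjusted p = 0.0543). UNC5B in hESC was at 68.6, 64.8 and 59.6 CPM against 37.2, 35.2 and 36.1 (-0.83 ± 0.23, adjusted p = 0.103). The genotypes did not overlap in any of these 4 comparisons, none passed in the edgeR fit, and each passed with DESeq2 (0.0234 for NRP1, 0.0381 for EFNA5, 0.0278 for EFNB1 and 0.0357 for UNC5B). By Day 12 the LIS1+/- and LIS1+/+ libraries overlapped in all 4.

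The Day 5 genotype values of EPHA1 and EPHB1 turned on 1 library. At Day 5 EPHA1 was at 6.75, 3.83 and 6.54 CPM in LIS1+/+ and at 0, 3.66 and 0 in LIS1+/- (74 against 10 counts, adjusted p = 0.149), and all 10 LIS1+/- counts came from replicate 2. EPHA1 is high in stem cells, and the lower stem cell marker sum of the LIS1+/- libraries at Day 5 (172 to 225 against 406 to 413 CPM) moved with it; its part was not tested. EPHB1 was at 56.7, 60.8 and 78.0 CPM and at 29.9, 68.7 and 26.3 (-0.65 ± 0.30, adjusted p = 0.393), with replicate 2 again apart. Without Day 5 LIS1+/- replicate 2 the adjusted p was 0.00103 for EPHA1 and 0.0165 for EPHB1, and EPHA1 also passed with no filter on low counts. SLIT2 was higher in each LIS1+/- organoid library than in each LIS1+/+ library of its stage, at 17.0 to 26.9 against 7.21 to 13.8 CPM at Day 5 and at 70.4 to 101 against 24.6 to 66.1 at Day 12, with adjusted p-values of 0.299 and 0.303.

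Outside these families, 65 further genes of axon guidance were listed and 63 were tested. In LIS1+/+ 26 rose and 11 fell from hESC to Day 5, and 13 rose and 7 fell from Day 5 to Day 12. These were 41.3% and 17.5% of the list in the first step, where 22.9% and 21.7% of all tested genes were called, and 20.6% and 11.1% in the second, where 12.7% and 11.7% were. Of the 20 tested co-receptors, other cues and adhesion partners, 12 rose and 2 fell in the first step, and of 43 cytoplasmic effectors 14 rose and 9 fell. The chemokine receptor CXCR4 went from 3.61 to 58.8 CPM (log2 3.93 ± 0.37) and the axonal adhesion molecule CNTN2 from 1.06 to 23.9 (4.33 ± 0.49). DPYSL5 and DPYSL4, of the collapsin response mediator family that acts behind plexins, rose by 2.65 ± 0.15 and 2.78 ± 0.24, while the oxidoreductase MICAL2 fell from 38.3 to 0.687 CPM and the kinase PAK1 from 186 to 58.4. From Day 5 to Day 12 the chemokine scavenger ACKR3 rose from 14.1 to 82.6 CPM and the adhesion molecule L1CAM from 26.9 to 106. MICAL1, DPYSL3 and LINGO1 fell in that step by 1.13, 0.94 and 1.00 on the log2 scale, and NCK2, an adaptor behind EPH receptors, rose by 0.75.

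On this second list 6 genes were called between genotypes within a stage, which was 1.59% of the list in hESC, 4.76% at Day 5 and 3.17% at Day 12, where 0.491%, 1.95% and 1.4% of all tested genes were. In hESC DPYSL5 was higher in LIS1+/- (115 and 222 CPM, log2 0.95 ± 0.15, adjusted p = 0.00225). At Day 5 LINGO1, a partner of the Nogo receptor, was lower (248 and 90.4 CPM, -1.45 ± 0.20, adjusted p = 0.000105), ACKR3 was higher (14.1 and 31.9 CPM, adjusted p = 0.0191) and VAV3 was higher on 4 against 38 counts (adjusted p = 0.0136). At Day 12 CRMP1 was higher (298 and 461 CPM, adjusted p = 0.028) and CXCL12, the ligand of CXCR4 and ACKR3, was lower (43.7 and 16.1 CPM, adjusted p = 0.0481). Mesenchyme markers summed to 936, 144 and 391 CPM in the Day 12 LIS1+/+ libraries, and their part in the CXCL12 level was not tested. How far the calls on this list depend on single libraries is not given here. The genotype effect differed between Day 5 and hESC for DPYSL5 (-0.98, adjusted p = 0.0209) and between Day 12 and Day 5 for ACKR3 (-1.61, 0.0294), LINGO1 (1.30, 0.0204) and VAV3 (0.0192).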

How the data were processed

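RNA was extracted with an RNeasy kit and sequenced by MARS-seq, per the labels' protocols. The submitters' processing notes name cutadapt, STAR and DESeq2, without versions, and the builds GRCh37 and hg38, without roles. Each deposited file holds the raw counts of 1 library by gene symbol, with 5 closing rows that name no gene (such as reads that were not unique), which made up 49.2% to 70.6% of all counts in a file and were left out. Whether molecular identifiers were collapsed, and the strand of counting, are not given in the sources used here.

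Genes were filtered with filterByExpr, scaled with TMM and tested in edgeR 4.0.16 (R 4.3.3) with 1 robust quasi-likelihood fit of 18 libraries, 6 group terms and 12 residual degrees of freedom, two-sided, over 10 comparisons. The SE is the size of the log2 fold change over the root of F. Alternatives were DESeq2 1.42.0, DESeq2 size factors, no filter, only the groups compared, a replicate block, and each library left out. Leaving out 3 libraries together was added after seeing the data. The members and lists were chosen with earlier results of these data known. Values in every library are given for members called between genotypes, for up to 5 members of each family with the smallest adjusted p in each LIS1+/+ step, and for members with no count at 1 stage of LIS1+/+ and a mean of at least 10 CPM at another; further values were chosen after being seen. Of the 10 comparisons, only LIS1+/- against LIS1+/+ at Day 12 was run on simulated counts, and the outcome is not given here. Promoters and gene order came from RefSeq (GRCh38.p14) and GC content from GENCODE transcripts (95.5% of tested genes). Within each group, replicate pairs differed by more than sampling noise.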

Additional observations from a re-analysis of the deposited data

Results flagged for a closer look

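The genotype effect on SEMA5B differed between Day 5 and Day 12 by a test of the difference itself. The log2 difference between LIS1+/- and LIS1+/+ was -1.36 at Day 5 and 0.14 at Day 12, and the difference of these effects was 1.501 ± 0.38 (edgeR, adjusted p = 0.0449). The LIS1+/- libraries rose from 10.8, 23.4 and 20.2 CPM to 43.9, 66.3 and 51.0, each Day 12 library above each Day 5 library, while the LIS1+/+ libraries were at 47.8, 45.7 and 47.1 and then at 61.4, 34.0 and 52.1. The call was lost in 12 of 18 alternatives, with an adjusted p of up to 0.162 (without Day 12 LIS1+/- replicate 2), and each of those 12 kept the direction. It held without Day 5 LIS1+/- replicate 2, without Day 12 LIS1+/+ replicate 1, without the 3 GC-affected libraries (0.0313) and with DESeq2 (0.0139).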

How the results depend on the processing

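Nothing reversed direction. The number of axon guidance genes called between genotypes (0 in hESC, 1 at Day 5, 0 at Day 12, and 0, 1 and 0 for the differences Day 5 minus hESC, then Day 12 minus Day 5, then Day 12 minus hESC) moved with the processing. With no filter on low counts it was 1, 8, 4, 4, 3 and 1. With DESeq2 it was 1 in hESC, 4 at Day 5, 1 at Day 12 and 2 for Day 12 minus Day 5. With only the groups compared in the fit it was 1 in hESC, 2 at Day 5, and 1, 0 and 1 for the differences in that order. Without the 3 libraries that stood apart it was 7 at Day 5, 2 at Day 12, and 2, 3 and 2 for the differences. With the replicate block it was 0 for Day 12 minus Day 5 (SEMA5B, adjusted p = 0.0560), and the block changed no other call. Correlations of same-numbered libraries ran from -0.134 to 0.104. Libraries of unlike number were not correlated beside them, so these values cannot decide whether the replicate numbers pair the samples. The cause of these moves was not tested.

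Leaving out 1 library at a time gave 26 to 29 calls for hESC to Day 5 and 8 to 12 for Day 5 to Day 12 in LIS1+/+, and 25 to 31 and 9 to 14 in LIS1+/-. It gave 0 in hESC, 1 to 5 at Day 5 and 0 to 2 at Day 12 between genotypes, and 0 to 2 for each difference. PAFAH1B1 at Day 12 was no longer called with only the groups compared (-0.79, adjusted p = 0.155) or without the 3 libraries (-0.55, 0.0834), and at Day 5 it was called without those 3 (-0.68, 0.0259). Depth limits the netrins and other genes of few counts, where a difference was not detectable.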
